A study of Mus musculus with 12 samples.

Results

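The FOS and JUN genes encode the core subunits of AP-1, and the family was taken as the 7 genes with the symbols Fos, Fosb, Fosl1, Fosl2, Jun, Junb and Jund. All 7 were found by symbol in both deposited comparison tables, among 26240 genes at 4 h and 27020 at 24 h, and all passed the filter on low counts. RNA was sequenced from primary cardiac fibroblasts of C57BL/6 mice, grown in medium with serum. Cells received either ethanol vehicle or MCB-613-10-1 at 6 µM, an agent the study describes as a derivative, for 4 h or for 24 h. Each of the 4 groups has 3 libraries. Whether the 3 libraries of a group came from separate cultures or animals is not stated in the labels, so p-values measure the spread between these libraries, which may be technical.

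AP-1 is a pair of basic leucine zipper proteins that binds the DNA motif TGANTCA. FOS proteins (c-FOS, FOSB, FRA-1 from Fosl1 and FRA-2 from Fosl2) need a JUN partner, whereas JUN proteins (c-JUN, JUNB and JUND) can also pair with each other. Several of these genes are immediate early genes, switched on within minutes of serum, growth factors or stress through MAP kinases, and AP-1 drives genes of matrix breakdown, inflammation and growth in fibroblasts.

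Library totals ran from 25016754 to 34877090 counts, and the least counted member in any library, Fosb, still had 142 counts. Levels are given as CPM (counts scaled to a common library size with TMM over all 12 libraries), or as CPM per kilobase where genes are compared with each other. The fibroblast label was checked on 11 marker genes, which summed to 6759 to 19640 CPM in every library. Col1a1 (2070 to 6740 CPM) and Vim (2350 to 4750 CPM) had the highest maxima. The lowest were those of S100a4 (1.59 to 16.4 CPM) and Lum (7.13 to 70.5 CPM). The 7 cardiomyocyte markers summed to 12 to 22.9 CPM in the 4 h libraries, 16.6 to 19.6 CPM in vehicle at 24 h and 6.21 to 9.20 CPM in treated cells at 24 h. Most of this was Tnnt2 (5.08 to 21.4 CPM), while Actn2 reached 1.15 CPM, Ryr2 0.784, Tnni3 0.404 and Myh6 0.198, and Myh7 and Nppa stayed lower still. Vehicle replicate 1 at 4 h stood apart. Its most GC-rich genes (the top decile) were lower than in the other vehicle libraries of that time, by a median log2 difference of -0.28, and its least GC-rich genes were higher, by 0.29. Treated replicate 1 at 4 h had -0.16 and 0.18, while at 24 h all such medians lay between -0.03 and 0.04. Junb, Jund and Fosl1 are GC-rich, with 62.6%, 67.1% and 58.5% GC. Vehicle replicate 1 was the lowest vehicle library at 4 h for every member, also for Fos with 51.9% GC. Some of the 4 h values are therefore given with and without this library.

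The genes lie on GRCm39 at chromosome 12, 85520664 to 85524047 (Fos, ENSMUSG00000021250), chromosome 7, 19036621 to 19043976 (Fosb, ENSMUSG00000003545), chromosome 19, 5497575 to 5505974 (Fosl1, ENSMUSG00000024912) and chromosome 5, 32293145 to 32315186 (Fosl2, ENSMUSG00000029135). The JUN genes lie at chromosome 4, 94937271 to 94940459 (Jun, ENSMUSG00000052684), chromosome 8, 85701113 to 85705347 (Junb, ENSMUSG00000052837) and chromosome 8, 71151599 to 71153265 (Jund, ENSMUSG00000071076). Counts were per whole gene. Fosl1 shares 2767 bases of its span with Ccdc85b, and Junb shares 351 bases with Prdx2, in both cases on the opposite strand. Whether counting used strand is not given in the sources used here, so reads from these stretches cannot be assigned with certainty.

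RefSeq promoter windows on build GRCm38.p6 were at hand for 6 of the 7 genes, all but Fosl1. Both strands of the 250 bases before the start were searched for the AP-1 element TGANTCA, the cyclic AMP response element TGACGTCA, its relative TGACATCA, the heat shock element core GAANNTTC, the antioxidant response element core TGACNNNGC bound by NRF2, the TATA box TATAAA and the CArG box bound by serum response factor. An antioxidant match can overlap an AP-1 or cyclic AMP match. The windows of Jun, which had the largest rise among these 6 genes at 24 h, of Junb, the most abundant member per kilobase at 4 h, and of Fosl2, which had the largest fall at 24 h, are printed 5′ to 3′ in the gene's own direction with matches in capitals.
Jun (chr4:95052223-95052472, minus strand): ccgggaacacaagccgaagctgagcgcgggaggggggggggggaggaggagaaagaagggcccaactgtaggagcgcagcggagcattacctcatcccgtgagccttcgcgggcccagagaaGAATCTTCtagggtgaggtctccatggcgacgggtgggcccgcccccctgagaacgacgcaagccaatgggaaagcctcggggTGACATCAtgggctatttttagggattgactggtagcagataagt
Junb (chr8:84978749-84978998, minus strand): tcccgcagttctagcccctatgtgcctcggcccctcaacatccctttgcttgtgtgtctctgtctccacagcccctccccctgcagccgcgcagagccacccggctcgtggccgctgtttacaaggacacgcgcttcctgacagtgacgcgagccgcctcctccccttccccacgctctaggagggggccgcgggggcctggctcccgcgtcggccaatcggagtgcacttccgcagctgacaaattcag
Fosl2 (chr5:32136222-32136471, plus strand): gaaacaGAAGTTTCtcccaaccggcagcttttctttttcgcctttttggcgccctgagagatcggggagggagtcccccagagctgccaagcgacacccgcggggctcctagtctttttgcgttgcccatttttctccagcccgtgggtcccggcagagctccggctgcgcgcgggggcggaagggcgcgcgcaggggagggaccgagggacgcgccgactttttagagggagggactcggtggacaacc
The Jun window held TGACATCA, starting 45 bases before the start site, and a heat shock core starting at 128. The first motif was present in 2.93% and the heat shock core in 6.69% of 32851 promoter windows of this length. Fosl2 also held a heat shock core, starting at 244, so both a gene that rose and one that fell carried these letters. No listed motif was found in these windows of Junb, Fosb or Jund, and Fos held only a TATA box, present in 12.4% of windows. The AP-1 element (6.75% of windows), TGACGTCA (1.55%), the antioxidant core (10.2%) and the CArG box (1.47%) were not matched in any of the 6 windows. These are matches of letters in short windows and not measured binding.

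After 24 h of MCB-613-10-1, Fosl1, Jun, Fosb, Junb and Fos rose, while Fosl2 and Jund fell. The changes ran from a 4.78-fold rise of Fosl1 to a 1.60-fold fall of Fosl2. All 7 members were thus called, at a time when 74.7% of the 15575 genes tested were called by edgeR (36.7% higher and 38% lower), so a call alone does not set a member apart. Their median log2 fold change was 0.86, against -0.02 over all genes tested. The size of the change was at the percentile 92.5 of all genes for Fosl1 and 81.6 for Jun, and at 29.3 for Jund. Scaling by library totals alone, which moved the median of all genes to -0.21 and the share of higher calls from 49.1% to 39%, left the direction and the call of all 7 members in place. In bulk RNA, fewer cells of a type and less RNA per cell cannot be told apart.

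Fosl1 encodes FRA-1, a FOS protein without the strong transactivation domain of c-FOS, whose own gene is induced by AP-1. It stood at 18.8, 24.1 and 18.8 CPM in the 24 h vehicle libraries and at 102, 98.5 and 95.0 CPM in the treated ones. The lowest treated library was thus well above the highest vehicle library. The log2 fold change was 2.26 (SE 0.08, edgeR adjusted p = 3.84e-12). The opposite-strand neighbour Ccdc85b was not called at 24 h (0.08, adjusted p = 0.352).

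Fosl2, which encodes FRA-2, went the other way. Its vehicle libraries held 206, 203 and 211 CPM at 24 h and its treated libraries 138, 139 and 112 CPM. The groups did not overlap, and treated replicate 3 was the lowest. Fosl2 was 1.60-fold lower (log2 fold change -0.68, SE 0.07, edgeR adjusted p = 5.41e-06).

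Fos and Fosb, the classical serum-induced FOS genes, were the least abundant members. Fos had 7.03, 6.79 and 7.67 CPM in vehicle and 10.6, 10.3 and 10.1 CPM in treated libraries at 24 h, which is 0.52 higher on the log2 scale (SE 0.12, edgeR adjusted p = 0.000517). Fosb had 4.15, 5.61 and 4.27 CPM in vehicle and 9.77, 10.4 and 9.97 CPM in treated libraries, a 2.15-fold rise (log2 fold change 1.10, SE 0.14, edgeR adjusted p = 7.46e-07). For both genes every treated library was above every vehicle library, but their treated levels at 24 h did not exceed the range of the vehicle libraries at 4 h, which was 8.96 to 12.4 CPM for Fos and 24.5 to 28.3 CPM for Fosb.

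Jun encodes c-JUN, the partner most often paired with FOS proteins and a target of the JNK kinases. It went from 94.8, 103 and 94.1 CPM in vehicle to 258, 272 and 282 CPM in treated libraries at 24 h. With groups this far apart the change was 2.77-fold (log2 fold change 1.47, SE 0.05, edgeR adjusted p = 2.27e-15). Junos, an antisense transcript at the Jun locus, was also higher (1.85, adjusted p = 0.000191), and reads of the stretch they share cannot be told apart without strand.

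Junb and Jund, known to hold back growth that c-JUN promotes in fibroblasts, moved in opposite directions at 24 h. Junb had 97.3, 96.5 and 94.3 CPM in vehicle and 172, 165 and 187 CPM in treated libraries, a 1.81-fold rise (log2 fold change 0.86, SE 0.05, edgeR adjusted p = 9.44e-12). Its neighbour Prdx2 fell (-0.56, adjusted p = 3.13e-09). Jund had 55.2, 51.1 and 57.0 CPM in vehicle and 41.0, 42.6 and 44.6 CPM in treated libraries. Jund was thus 1.28-fold lower without overlap of the groups (log2 fold change -0.36, SE 0.06, edgeR adjusted p = 4.57e-05). This call ended when all 12 libraries shared 1 estimate of the spread (adjusted p = 0.259).

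**Figure D1:**
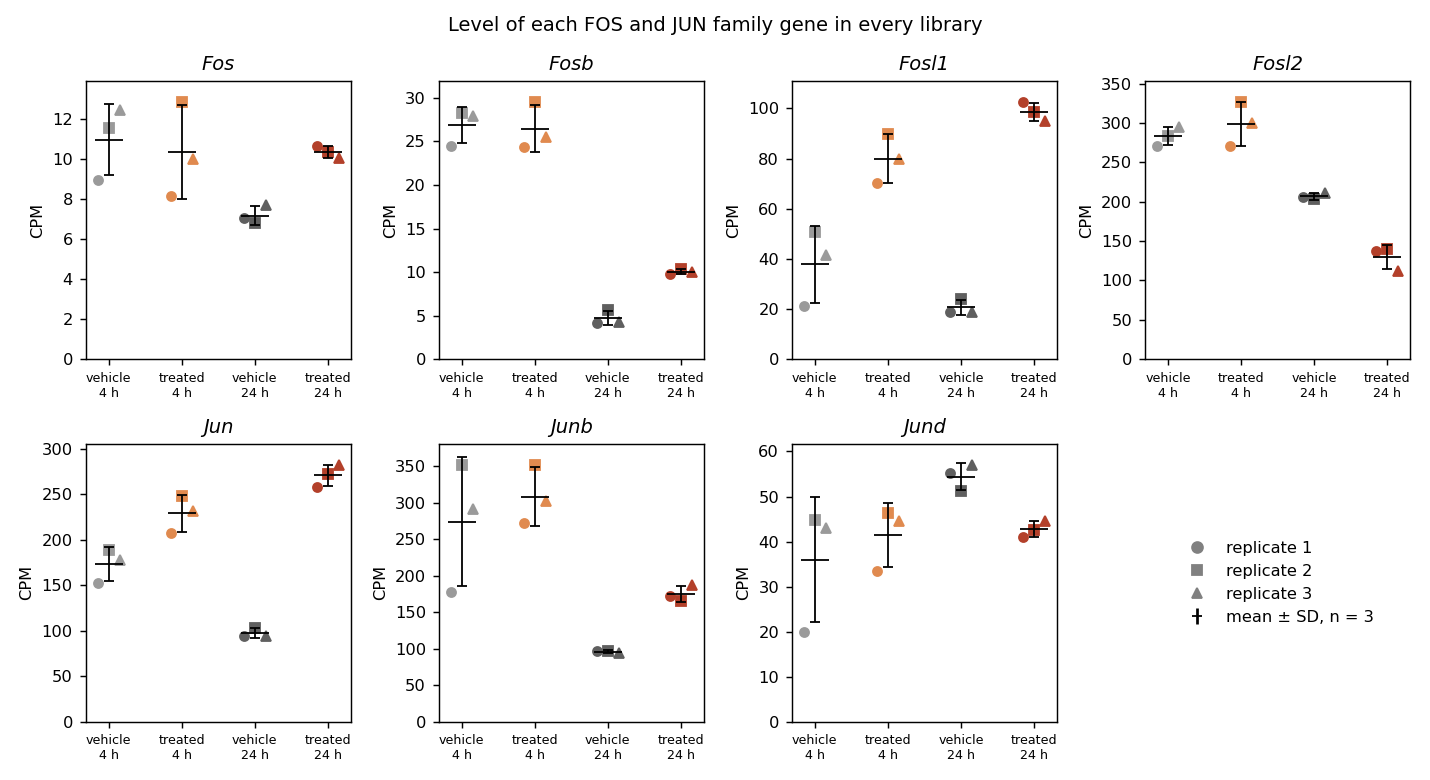
CPM of each family gene in the 12 libraries (points, marked by replicate number), with mean and SD of 3 libraries per group. At 24 h the treated libraries lie above vehicle for Fos, Fosb, Fosl1, Jun and Junb and below it for Fosl2 and Jund, and vehicle replicate 1 at 4 h (20.99 CPM for Fosl1, 19.93 CPM for Jund) lies below the other vehicle libraries of that time.

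After 4 h, Jun was the only member called, against 7.16% of 15336 genes called by edgeR (3.45% higher and 3.71% lower). It went from 153, 189 and 178 CPM in vehicle to 207, 248 and 232 CPM in treated libraries, which did not overlap. The log2 fold change was 0.40 (SE 0.10, edgeR adjusted p = 0.0353). Leaving out vehicle replicate 3 lost the call (adjusted p = 0.0765), as did leaving out treated replicate 2 (0.174), treated replicate 3 (0.149) or scaling by library totals alone (0.0549). The fold change itself stayed between 0.32 and 0.47 on the log2 scale without any 1 library.

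Fosl1 had the largest 4 h value of the family but a wide spread in vehicle. The vehicle libraries held 21.0, 50.7 and 41.7 CPM and the treated libraries 70.2, 89.7 and 80.0 CPM, so the groups did not overlap although replicate 1 of vehicle lay far below the other two. Its log2 value of 1.08 (SE 0.32) did not pass the test (edgeR adjusted p = 0.113). Without vehicle replicate 1 the value was smaller, 0.79, and passed (adjusted p = 0.000507). It also passed with all 12 libraries in the fit (edgeR adjusted p = 0.0304) and with DESeq2 (0.0426). The authors' deposited table, whose tools include DESeq2, holds the same log2 fold change of 1.09 (adjusted p = 0.0412). Under 8 of 12 other settings Fosl1 stayed uncalled. Among them were library totals alone (edgeR adjusted p = 0.104) and leaving out vehicle replicate 3 (0.246) or treated replicate 2 (0.29). Beside it, Ccdc85b was higher (0.61, edgeR adjusted p = 0.0177), a call lost when vehicle replicate 1 or 3, or when treated replicate 2 or 3, was left out (adjusted p from 0.0515 to 0.0886). The part of shared reads in the Fosl1 value was not tested.

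The other members were not called at 4 h. Junb held 178, 352 and 292 CPM in vehicle and 272, 351 and 302 CPM in treated libraries (log2 fold change 0.17, SE 0.24, edgeR adjusted p = 0.724). Jund held 19.9, 44.9 and 43.1 CPM in vehicle and 33.4, 46.3 and 44.7 CPM in treated libraries (0.21, SE 0.33, adjusted p = 0.756). For both genes the groups overlapped, and the sign turned without vehicle replicate 1, to -0.06 and -0.09. Fosl2 (271 to 294 CPM in vehicle, 271 to 326 CPM in treated libraries), Fosb (24.5 to 28.3 and 24.4 to 29.5 CPM) and Fos (8.96 to 12.4 and 8.16 to 12.8 CPM) overlapped almost wholly, with log2 fold changes of 0.08, -0.02 and -0.08 (SE 0.09, 0.11 and 0.18).

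**Figure D2:**
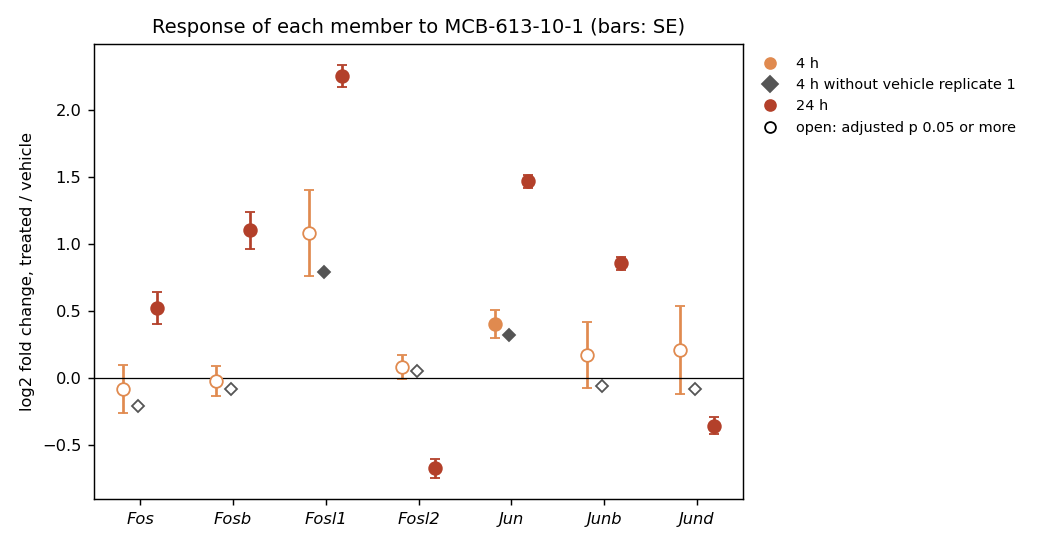
Log2 fold change of treated over vehicle for each member at 4 h and 24 h with its SE, and at 4 h without vehicle replicate 1 (diamonds); filled symbols passed at an adjusted p under 0.05. At 24 h all 7 members passed, from 2.26 for Fosl1 to -0.68 for Fosl2, whereas at 4 h with all libraries only Jun did, at 0.40.

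The responses at the 2 times were compared in 1 model over all 12 libraries. The 24 h response was more positive for Jun, Fosb, Fosl1 and Fos and more negative for Fosl2, against 53.8% of 16341 genes called in this comparison (26.7% higher and 27.1% lower). The difference was 1.07 for Jun (SE 0.12, edgeR adjusted p = 4.72e-07), 1.13 for Fosb (SE 0.17, adjusted p = 1.72e-05) and -0.75 for Fosl2 (SE 0.12, adjusted p = 2.92e-05), and these 3 calls held under every other setting tried. That of Fosl1 was 1.18 (SE 0.38, adjusted p = 0.0279) and that of Fos 0.61 (SE 0.22, adjusted p = 0.0226). For Fosl1 the call was lost under 9 of 17 other settings, among them leaving out vehicle replicate 2 or 3 of 4 h (0.0576 and 0.0669). Without vehicle replicate 1 of 4 h, the library that stood apart, it was 1.47 (adjusted p = 6.21e-06). For Fos it was lost without vehicle replicate 3 or treated replicate 1 of 4 h or vehicle replicate 2 of 24 h (0.0656, 0.0691 and 0.0522) and with library totals alone (0.0699). Junb and Jund were not called (0.69 and -0.56, adjusted p = 0.0714 and 0.236). Junb passed without vehicle replicate 1 of 4 h, at 0.92 (adjusted p = 2.83e-05), and with DESeq2 (0.0432).

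In vehicle cells alone, 6 of the 7 members were lower at 24 h than at 4 h. In the same model 54.3% of genes differed (27.4% higher and 27% lower). Fosb was 5.77-fold lower (log2 difference -2.53, SE 0.12, edgeR adjusted p = 2.83e-11) and Junb 2.85-fold lower (-1.51, SE 0.21, adjusted p = 0.000187). Jun was lower by 1.78-fold, Fosl1 by 1.83-fold, Fos by 1.53-fold and Fosl2 by 1.37-fold. Jund was higher at 24 h without overlap, but the difference of 0.60 was not called (SE 0.26, adjusted p = 0.0788). It passed without vehicle replicate 1 of 4 h, at 0.31 (adjusted p = 0.0159), and without vehicle replicate 2 of 4 h, at 0.80 (0.0484). The call of Fosl1 (adjusted p = 0.025) was lost without vehicle replicate 2 or 3 of 4 h (0.0895 and 0.0764) or 1 or 3 of 24 h (0.0811 and 0.0793), and without vehicle replicate 1 of 4 h the difference was -1.17 (adjusted p = 5.08e-06). The header of the 24 h table names its group means with a prefix that the 4 h table lacks and the labels do not explain, so a further difference between the libraries of the 2 times cannot be told apart from time. This comparison and the treatment responses share the vehicle libraries.

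The 4 groups therefore fall in a different order for different members. For Jun the order was vehicle at 24 h (97.5 ± 5.25 CPM, SD, n = 3), vehicle at 4 h (173 ± 18.9), treated at 4 h (229 ± 20.5) and treated at 24 h (271 ± 11.9), with no overlap between neighbours. Fosl1 had the same order, 20.6 ± 3.07, 37.8 ± 15.2, 80.0 ± 9.72 and 98.6 ± 3.70 CPM, and there only the vehicle groups overlapped. Junb was lowest in vehicle at 24 h (96.0 ± 1.55 CPM), then treated at 24 h (175 ± 11.2), and highest in the 4 h groups, 274 ± 88.3 in vehicle and 308 ± 40.1 in treated cells. The range of treated Junb at 24 h met that of vehicle at 4 h, in its replicate 1. Fosl2 was lowest in treated cells at 24 h (130 ± 15.1 CPM), then vehicle at 24 h (207 ± 4.19), and its 4 h groups, 283 ± 11.6 and 299 ± 27.8, overlapped. Fosb had 4.67 ± 0.808 CPM in vehicle and 10.0 ± 0.313 in treated cells at 24 h, both below the overlapping 4 h groups. For Fos, vehicle at 24 h was lowest at 7.17 ± 0.456 CPM and the other groups, at means of 10.33 to 10.97 CPM, did not differ beyond their spread. Jund was highest in vehicle at 24 h (54.4 ± 2.99 CPM), and the other groups, at 36.0 to 42.7, overlapped.

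Per kilobase, Junb RNA was the most abundant of the family in vehicle cells, and Jun was the most abundant in treated cells at 24 h. At 4 h in vehicle, Junb stood at 119 ± 38.4 CPM per kilobase and Jun at 54.3 ± 5.91, followed by Fosl2 at 29.2 ± 1.20, Jund at 21.6 ± 8.34 and Fosl1 at 18.6 ± 7.48. The ranges of Jund and Fosl1 overlapped, although Jund was above Fosl1 within each library. Fos and Fosb, at 4.66 ± 0.763 and 4.31 ± 0.333, were the lowest and overlapped. In vehicle at 24 h the order was Junb (41.7 ± 0.674), Jund (32.6 ± 1.79), Jun (30.6 ± 1.65), Fosl2 (21.4 ± 0.432), Fosl1 (10.1 ± 1.51), Fos (3.05 ± 0.194) and Fosb (0.749 ± 0.129), with overlap only between Jund and Jun. In treated cells at 24 h Jun reached 85.0 ± 3.72 and Junb 75.9 ± 4.85, and Fosl1 came next at 48.5 ± 1.82. The ranges of Jun and Junb met across libraries, but Jun was above Junb within each of the 3 treated libraries (81.1 against 74.6, 85.3 against 71.9 and 88.5 against 81.3 CPM per kilobase).

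The makeup of the family RNA can be read within each library, where it does not depend on scaling between libraries. Over all 7 genes per kilobase, Fosl1 made up 7.22% ± 1.00 of the family in vehicle cells at 24 h and 19.1% ± 1.09 in treated cells (SD, n = 3), while Fosl2 went from 15.2% ± 0.41 to 5.28% ± 0.718. The order of these FOS genes was thus the reverse in the 2 groups, in every library. Jun went from 21.8% ± 0.971 to 33.4% ± 0.928 and Jund from 23.3% ± 1.47 to 10.1% ± 0.243, while Junb stood at 29.8% in both. The 4 FOS genes together made up 25.2% ± 0.67 in vehicle and 26.7% ± 1.86 in treated cells at 24 h, with overlapping libraries. The summed level of the family was 140 ± 1.29 CPM per kilobase in vehicle and 254 ± 5.44 in treated cells at 24 h, against 252 ± 61.7 and 309 ± 36.6 at 4 h, where the groups overlapped. At 4 h, Fosl1 made up 5.64% to 8.23% in vehicle and 12.7% in all treated libraries.

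**Figure D3:**
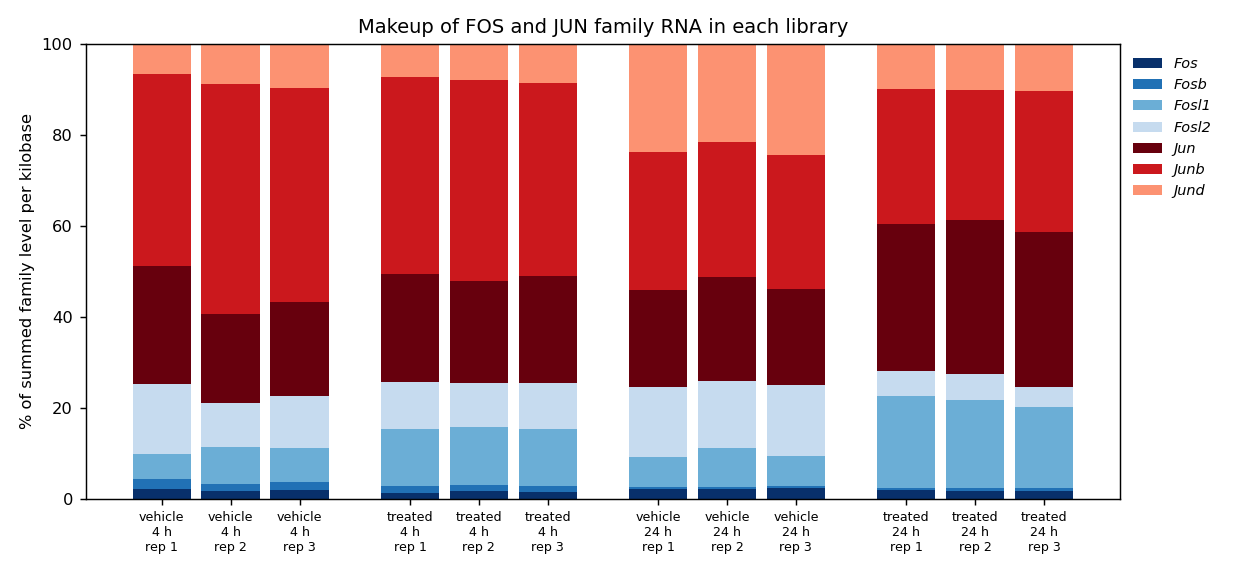
Share of each member in the summed CPM per kilobase of the 7 genes, 1 bar per library, FOS genes in blue and JUN genes in red. In treated libraries at 24 h the Fosl1 share is wider (mean 19.1%) and those of Fosl2 and Jund narrower (5.28% and 10.1%) than in vehicle at 24 h (7.22%, 15.2% and 23.3%).

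Members differed in how they varied together over the 12 libraries, which fall in 4 groups and share depth and scaling, so these correlations mostly restate the group means. Log2 CPM of Jun and Fosl1 had a Pearson r of 0.955 and that of Junb and Fosb 0.944. Jund had a negative r with every other member, from -0.01 to -0.54, and Fosl2 had -0.26 with Fosl1 and -0.21 with Jun. Among 10420 protein-coding genes with a mean FPKM of at least 1, the patterns most like Jun were those of Sltm and Pard3 (r = 0.996 and 0.995), most like Fosl1 those of Atxn2l and Dtx2 (0.991 and 0.988), and most like Fosb those of Crct1 and Klf6 (0.992 and 0.990). For Fosl2 they were Ptprf and Slc4a2 (0.991 each), for Junb Mustn1 and Foxk1 (0.977 each), for Jund Scand1 and Rnf220 (0.965 and 0.955), and for Fos Efhd2 and Arrdc2 (0.910 and 0.875).

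Other basic leucine zipper genes whose products pair with FOS or JUN proteins were also higher in treated cells. Of 13 such genes tested at 4 h, 3 rose and 0 fell, against 7.16% of all genes called, and DESeq2 called 4, all higher. At an unadjusted edgeR p under 0.05 there were 8, and the list's median log2 fold change was 0.31 against -0.01 over all genes. These were Jdp2, a repressor that dimerizes with JUN (26.3 ± 6.89 to 46.1 ± 1.64 CPM, log2 fold change 0.81), the small MAF gene Mafg (111 ± 2.60 to 184 ± 5.29 CPM, 0.73) and Atf3, a stress-induced factor (51.7 ± 3.87 to 80.6 ± 2.54 CPM, 0.64), with edgeR adjusted p of 0.0145, 0.000189 and 0.00119. Leaving out any 1 treated library took Jdp2 past the threshold (adjusted p from 0.0546 to 0.0698). Without vehicle replicate 1 of 4 h its log2 fold change was smaller, 0.61, and passed (edgeR adjusted p = 0.000309). At 24 h, 8 of 12 rose and 2 fell (median 0.77), when 74.7% of all genes were called. Atf3 went from 9.38 ± 0.375 to 322 ± 21.8 CPM, 34.2-fold, and its treated libraries at 24 h were also above both 4 h groups. The small MAF genes Maff and Mafk, whose products lack a transactivation domain, rose 4.84-fold and 4.48-fold. Maf, a large MAF gene, fell (-2.15, edgeR adjusted p = 1.52e-10).

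Genes of the MAP kinase cascades that act on AP-1 were not called at 4 h, 0 of 25 by edgeR and 0 by DESeq2. Over all genes edgeR called 7.16% at that time. At an unadjusted edgeR p under 0.05 there were 2 of the 25, and the share of all genes at that threshold is not given here. At 24 h, 12 of the 25 rose and 9 fell (median 0.01), beside 36.7% of all genes higher and 38% lower. The kinase genes Map2k3, upstream of p38, and Map2k1, upstream of ERK, rose 2.45-fold (194 ± 9.89 to 477 ± 13.6 CPM) and 2.29-fold (147 ± 0.937 to 339 ± 13.5 CPM). Mapk14, which encodes p38 alpha, went from 122 ± 0.675 to 58.9 ± 4.74 CPM, 2.09-fold lower. Of 14 genes for factors that bind the Fos and Jun promoters, Mef2c alone was called at 4 h, a share near the 7.16% over all genes, and it fell (-0.82, edgeR adjusted p = 0.0321). That call was lost without vehicle replicate 3 and without any 1 treated library (adjusted p from 0.0735 to 0.154). At 24 h 8 of the 14 rose and 5 fell (median 0.18), when 74.7% of all genes were called. Crem, a cyclic AMP responsive factor, rose 2.55-fold and the serum response factor partner Elk4 2.13-fold, while its relative Elk3 was 2.21-fold lower.

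Of the genes known as AP-1 targets, those called at 4 h mostly fell, while those called at 24 h moved both ways. At 4 h, 1 of 24 tested rose and 7 fell (median log2 fold change -0.14), beside 3.45% of all genes higher and 3.71% lower. DESeq2 called 9 of them at 4 h, with 1 higher. The gene that rose was Plaur, the urokinase receptor (175 ± 26.2 to 239 ± 8.42 CPM, 0.45, edgeR adjusted p = 0.0253). Plaur, too, did not pass without vehicle replicate 3 or without any 1 treated library (adjusted p from 0.0692 to 0.123). Without vehicle replicate 1 its log2 fold change was 0.35 and passed (edgeR adjusted p = 0.00853). The cytokine genes Il6 (23.7 ± 2.23 to 9.05 ± 2.57 CPM, -1.39) and Lif (333 ± 20.1 to 137 ± 22.0 CPM, -1.28) fell, as did Plau, which encodes urokinase (-0.70). Plau did not pass without treated replicate 1 (0.0539) or 2 (0.0564). At 24 h, 8 of 23 rose and 9 fell (median 0.02), a share close to the 74.7% called over all genes. The collagenase gene Mmp13 went from 17.7 ± 1.67 to 266 ± 21.6 CPM, 14.9-fold (edgeR adjusted p = 1.51e-13), and the stromelysin gene Mmp10 from 2.93 ± 0.48 to 31.1 ± 3.37 CPM, 10.6-fold. Il6 fell from 16.9 ± 0.713 to 2.21 ± 0.557 CPM, 7.75-fold lower. Plaur rose 6.62-fold while Plau was 4.07-fold lower, so the receptor and its ligand went in opposite directions. At 4 h, Mmp13 stood at 292 ± 96.2 CPM in vehicle and 264 ± 35.3 CPM in treated cells, so the treated level at 24 h lay in the range of the 4 h libraries.

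**Figure D4:**
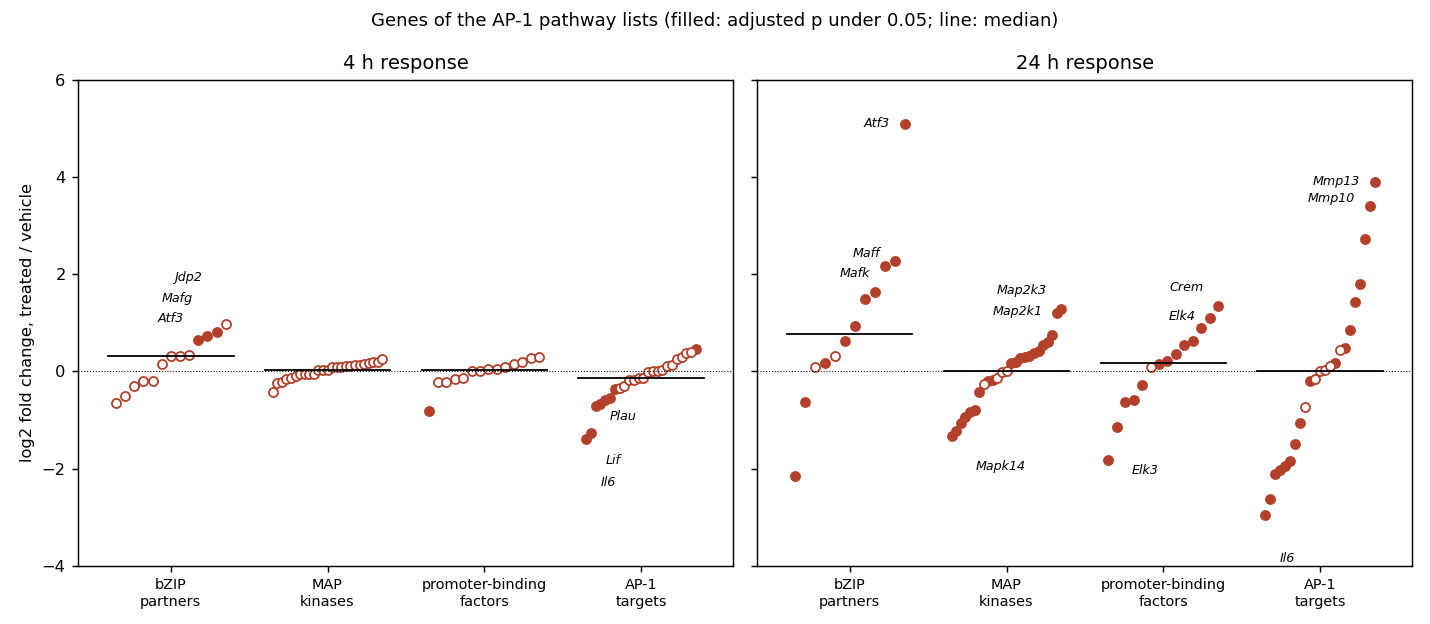
Log2 fold change of treated over vehicle at 4 h and 24 h for the tested genes of 4 lists, sorted within each list; filled points passed at an adjusted p under 0.05 and lines are medians. The bZIP partners have medians of 0.31 and 0.77, led by Atf3 at 24 h, and the AP-1 targets spread from -2.95 for Il6 to 3.90 for Mmp13 at 24 h.

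Markers of other cells moved with time and treatment. The summed level of 11 macrophage and leukocyte markers was 99.7 to 109 CPM in vehicle at 4 h and 71.1 to 91.2 CPM in treated cells, and at 24 h it was 349 to 411 CPM in vehicle and 157 to 180 CPM in treated cells. Lyz2 had the widest range of these markers (34.4 to 291 CPM over the 12 libraries), while Csf1r, with the next highest maximum, reached 29.5 CPM. Cd3e was at 0 in every library. The 11 fibroblast markers summed to 15890 to 19640 CPM in vehicle and 6759 to 7102 CPM in treated cells at 24 h. Abundant genes such as Col1a1 and Vim weigh most in this sum, which does not give the direction of each marker. Sums of 7 endothelial markers stayed between 43.3 and 59.1 CPM in all groups, those of 7 pericyte and smooth muscle markers were 147 to 159 CPM in vehicle and 72.8 to 75.8 CPM in treated cells at 24 h, and those of 6 mesothelial markers 80.8 to 94.5 and 32.0 to 41.8 CPM. Most of the pericyte and smooth muscle sum was Smtn (66 to 177 CPM over all libraries), and Cnn1, with the next highest maximum, reached 18.2 CPM. The part of cell makeup in the values of the FOS and JUN genes was not tested.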

How the data were processed

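RNA-seq of 12 libraries (4 groups of 3) was analysed. Per the submitters' processing notes, which give no role or order, the authors' tools included featureCounts 1.5.0-p3, HISAT2 2.0.5 and DESeq2, with build GRCm39 (mm39). Per the file headers, the deposited tables hold raw counts, the count signal divided by a size factor, FPKM, and the p-value, adjusted p-value and log2 fold change of the authors' own comparison. Raw counts were tested with edgeR 4.0.16 (R 4.3.3, quasi-likelihood, default filter, TMM, robust), with Benjamini-Hochberg adjustment over all genes tested and calls under 0.05. Each response was fitted on its own 6 libraries, and comparisons across times on all 12. SE is the size of the log2 fold change divided by the root of F. DESeq2 1.42.0 was an alternative. The fits were tested on simulated data, with the same spread set for every gene. That setting does not cover the wide spread in vehicle at 4 h, where the SD was 40.3% of the mean for Fosl1, 38.7% for Jund and 32.3% for Junb.

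The members and gene lists were chosen with earlier results of these data known. All members were named, along with up to 3 called genes per list and time, by size of change (FPKM of at least 1 in the higher group), and the 2 genes most like each member. Mef2c, Maf, Plaur, Plau at 24 h and the overlapping neighbours were named after their values were seen. Some list genes are not reported here.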

Additional observations from a re-analysis of the deposited data

Results flagged for a closer look

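For 5 members the response to MCB-613-10-1 differed between 4 h and 24 h by the interaction test in edgeR. As the 24 h minus the 4 h log2 response, the difference was 1.18 for Fosl1, 1.13 for Fosb, 1.07 for Jun, 0.61 for Fos and -0.75 for Fosl2. In this comparison 53.8% of all genes tested were called.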

How the results depend on the processing

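At 24 h all 7 members kept their direction under the 12 other settings, and the number called was 7 except when all 12 libraries were fitted, where it was 6. At 4 h the number of genes called, 1098, was 1953 under a replicate block, 2198 when all 12 libraries were fitted and 443 to 1760 without 1 library. The number of members called at 4 h, 1, was 0 with library totals alone and 2 with DESeq2, under the replicate block or when all 12 libraries were fitted, and 0 to 2 without 1 library. With library totals alone the share of higher calls at 4 h was 34.5% in place of 48.2%. For the difference between the responses, 5 members were called and 3 to 6 without 1 library. Signs turned for members that were not called at 4 h. Without 1 library the log2 fold change of Fos ran from -0.27 to 0.0591, that of Fosb from -0.11 to 0.0327, that of Junb from -0.0616 to 0.39 and that of Jund from -0.0851 to 0.40. Ccdc85b at 24 h was -0.11 with library totals alone and -0.00497 to 0.14 without 1 library. Where the cause of a change is not shown by the setting itself, the cause was not tested. Whether same-numbered libraries were paired is not stated in the labels. Correlations of their deviations from the group mean were 0.04 to 0.06 at 4 h, above those of differently numbered libraries (-0.07 to 0.02). At 24 h they were -0.02 to 0.01, within the range of differently numbered libraries (-0.06 to 0.05). A shared origin of same-numbered libraries was not tested. With the replicate block, Fosl1 was called at 4 h (adjusted p = 0.0301), and Junb (0.00569) and Jund (0.00871) were called in the difference between the responses and Jund in the vehicle comparison (0.000541).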
